A study of Mus musculus with 4 samples.

Results

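Primary-granule myeloid progenitors are marrow cells that load the first granules of the neutrophil with enzymes. Among 21014 kept cell barcodes of 2 growth plate libraries, 1103 met a rule for such cells. The 4 libraries of the series held 26153 kept barcodes in all. A barcode, which stands for 1 cell, was kept with at least 200 genes and at most 20% of its unique molecular identifiers (UMIs, each 1 counted RNA molecule) from mitochondrial genes. It was taken as a progenitor where Mpo, Elane, Prtn3 and Ctsg together reached at least 20 per 10000 UMIs, at least 3 of these 4 genes had a UMI, and Ebf1, a transcription factor of the B lineage, had none. The levels of these genes chose the cells, so they are given as a description, with no test.

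All animals carried the same engineered change in a receptor kinase of sensory neurons, which lets the compound 1NMPP1 inhibit that kinase, so the controls had it too. The growth plate of the distal femur had been injured, and the end of the bone with the tissue around it was dissected 7 days later and digested 5 times with collagenase. 1NMPP1 was injected at 17 µg/g at 48 h and 2 h before surgery and then given in drinking water at 40 µM, while the control mice received DMSO as vehicle. The vehicle library held 565 progenitors and the 1NMPP1 library 538. Mouse age, animals per library and the cells that make the changed kinase were not stated in the sources used. Each group is 1 library, so no difference between them has a replicate check and no p-value is given; intervals are 95% and cover counting error only.

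Granulocyte-monocyte progenitors give rise to promyelocytes, which make the primary (azurophil) granules, and the granules keep myeloperoxidase and serine proteases until the mature neutrophil uses them against microbes. Transcription of the granule genes begins in dividing cells and stops as the cells turn to the secondary granules, whose proteins include lactoferrin and cathelicidin. Monocyte progenitors make part of the same set of enzymes. Mpo encodes myeloperoxidase, Elane neutrophil elastase, Prtn3 proteinase 3 and Ctsg cathepsin G, while Ms4a3, a membrane protein of granulocyte-monocyte progenitors, is a further marker of these cells that the rule did not use.

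The 250 bases upstream of the annotated starts of these 5 genes are shown because the genes were measured together in the same cells. They come from RefSeq on GRCm38.p6, the build that mm10 names, and all 5 genes matched. Each is written 5′ to 3′ on the strand of its gene, which is the plus strand for Mpo (chr11:87793534-87793783), Elane (chr10:79886062-79886311) and Prtn3 (chr10:79879417-79879666) and the minus strand for Ctsg (chr14:56102575-56102824) and Ms4a3 (chr19:11640852-11641101). Capitals mark the letters AGGAAGT, as in sites of the ETS factors that include PU.1, and AACGG, as in sites of Myb.
Mpo: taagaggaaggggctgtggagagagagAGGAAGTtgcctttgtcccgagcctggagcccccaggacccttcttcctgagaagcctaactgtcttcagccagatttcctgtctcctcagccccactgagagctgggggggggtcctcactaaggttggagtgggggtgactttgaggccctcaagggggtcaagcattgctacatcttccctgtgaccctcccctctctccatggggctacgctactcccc
Elane: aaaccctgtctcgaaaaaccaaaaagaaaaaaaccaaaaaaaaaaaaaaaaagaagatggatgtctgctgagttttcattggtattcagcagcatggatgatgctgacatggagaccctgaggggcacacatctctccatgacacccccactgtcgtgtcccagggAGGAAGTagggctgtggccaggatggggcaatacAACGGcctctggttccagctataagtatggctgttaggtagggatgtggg
Prtn3: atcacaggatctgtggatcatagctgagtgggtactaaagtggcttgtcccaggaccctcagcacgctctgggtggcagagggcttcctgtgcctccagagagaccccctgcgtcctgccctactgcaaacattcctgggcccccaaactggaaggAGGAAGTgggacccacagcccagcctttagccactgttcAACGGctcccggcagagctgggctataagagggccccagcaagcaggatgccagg
Ctsg: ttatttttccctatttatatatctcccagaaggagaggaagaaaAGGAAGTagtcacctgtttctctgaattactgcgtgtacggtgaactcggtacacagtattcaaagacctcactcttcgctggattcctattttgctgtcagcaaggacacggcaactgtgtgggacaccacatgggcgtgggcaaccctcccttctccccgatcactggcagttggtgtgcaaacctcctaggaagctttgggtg
Ms4a3: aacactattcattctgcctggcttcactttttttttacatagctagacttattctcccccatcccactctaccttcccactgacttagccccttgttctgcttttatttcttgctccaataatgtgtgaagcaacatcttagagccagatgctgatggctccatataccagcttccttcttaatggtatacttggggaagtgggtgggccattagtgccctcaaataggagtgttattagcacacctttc
AGGAAGT, searched on both strands, stood in the windows of 4 of the 4 rule genes, 223 bases upstream of the start in Mpo, 84 in Elane, 94 in Prtn3 and 206 in Ctsg. It was in 7.69% of 32851 windows of 250 bases upstream of RefSeq genes. AACGG lay 50 bases upstream of the Elane start and 55 bases upstream of the Prtn3 start, and was in 14.5% of all windows. GCAAT, part of many C/EBP sites, lay 56 bases upstream in Mpo on the opposite strand and 57 in Elane (23.1% of windows), and TGTGGT, as in Runx sites, 79 bases upstream in Ctsg on the opposite strand (14.0% of windows). The Ms4a3 window held none of these letters. The motifs were chosen after the sequences had been read, and a match is a description of letters, not of a bound site. Elane and Prtn3 are neighbours, with starts 6645 bases apart on chromosome 10 (Prtn3 at 79879667-79883174 and Elane at 79886312-79888216). The Mpo gene spans 87793784-87804412 on chromosome 11, Ctsg 56099885-56102574 on chromosome 14 and Ms4a3 11629499-11640851 on chromosome 19.

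The progenitors were deep cells, with medians of 25833 UMIs (vehicle) and 31349.5 UMIs (1NMPP1), against 6859 and 7467.5 over all kept barcodes. Their median mitochondrial share was 2.34% and 2.43%. The 2 growth plate libraries shared 40 barcode sequences, none of which was a progenitor in both. Scrublet, a doublet caller set to mark 0.8% per 1000 barcodes, marked 42 of the 565 progenitors (7.43%) and 62 of the 538 (11.5%), and they were kept. The feature tables used for counting were not identical: that of the vehicle growth plate library had an added sequence named AAV_PHP_S, which that of the 1NMPP1 library lacked. Cells were called male with a UMI of Ddx3y, Eif2s3y, Kdm5d or Uty and none of Xist, and female the other way round. Male calls made up 52.9% of the vehicle progenitors and 30.5% of the 1NMPP1 progenitors, and female calls 23.4% and 49.8%, so sex composition and treatment cannot be told apart in the pooled cells and values within each call are given beside the results they touch.

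B-lineage cells, which should not make these enzymes, were set beside the progenitors for comparison. With a UMI each of Ebf1, Cd79a and Cd79b by choice, they held an Mpo UMI in 17.7% of vehicle and 23.9% of 1NMPP1 cells at medians of 6168 and 7513 UMIs. Their Mpo level was 217 CPM (UMIs of the gene per 1000000 UMIs of the population) in the vehicle library and 270 CPM in the 1NMPP1 library. No upper limit on the enzymes was set for B-lineage cells, so these levels cannot be read as background alone. The enzymes and Ms4a3 together reached at least 10 per 10000 UMIs in 50 and 69 B-lineage cells. The highest cells stood at 492 and 506 per 10000, against medians of 0.27 and 0.68. In the progenitors, Mpo was at 3317 CPM (3288 to 3346) and 3584 CPM (3555 to 3613), with a UMI in 99.5% and 98.5% of cells. Ms4a3, which played no part in the choice, had a UMI in 88.5% of vehicle and 85.3% of 1NMPP1 progenitors and in 7.1% and 8.7% of B-lineage cells. After thinning each cell to 3000 UMIs, the Ms4a3 shares were 75.1% and 70.2% in progenitors and 3.4% and 3.5% in B-lineage cells.

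The other marker classes were mostly at a low level in the progenitors. Of 7 B-lineage markers, Ebf1 was at 0 by the rule and the summed level was 29.5 and 40.1 CPM. The 5 T and NK markers summed to 1.07 and 1.86 CPM, the 4 stromal and bone markers to 12.9 and 10.2 CPM, and the 4 chondrocyte markers to 33.4 and 21.6 CPM. Erythroid markers summed to 535 CPM in the vehicle library and 157 CPM in the 1NMPP1 library, and a sum of at least 10 per 10000 UMIs was found in 25 and 9 cells. The 5 basophil and mast cell markers summed to 1112.5 and 943 CPM, and 32 and 24 cells reached at least 10 per 10000 UMIs for them. The early markers Kit, Cd34, Flt3 and Sox4 summed to 124 and 128 CPM, below the 386 and 381 CPM of B-lineage cells. The label of primary-granule progenitor therefore rested on the rule genes and Ms4a3, not on every class. Of its cells, 257 and 251 also reached 10 per 10000 UMIs for the secondary-granule genes Camp, Ltf, Ngp and Lcn2. For the monocyte genes Csf1r, Ly86, Irf8, F13a1 and Ccr2, 154 and 161 cells did so.

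Barcodes with a sum of the 4 genes from 15 to 20 per 10000 UMIs, just outside, numbered 28 and 29, and those from 20 to 25, just inside, 28 and 38. Ms4a3 had a UMI in 42.9% and 48.3% of the cells just outside and in 50% and 57.9% of those just inside. The median sum over all progenitors was 153 per 10000 in the vehicle library (quartiles 59.2 and 299) and 128 in the 1NMPP1 library (quartiles 52.0 and 310). The condition on Ebf1 left out 114 and 196 barcodes that met the other conditions, of which 77 and 147 held a single Ebf1 UMI.

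The progenitors fell into 3 ranges along the marker sums for the later granules and for monocytes. Cells with Camp, Ltf, Ngp and Lcn2 at a sum of at least 100 per 10000 UMIs formed the secondary range, with 165 vehicle cells (29.2%, 25.5 to 33.1) and 158 1NMPP1 cells (29.4%, 25.5 to 33.4). Of the others, cells with at least 2 of Csf1r, Ly86, Irf8, F13a1 and Ccr2 detected and a sum of at least 5 per 10000 formed the monocyte range, with 180 (31.9%, 28.0 to 35.9) and 170 cells (31.6%, 27.7 to 35.7). The remaining range held 220 (38.9%, 34.9 to 43.1) and 210 cells (39.0%, 34.9 to 43.3). These ranges are set by cutoffs and are not cell types: 53 and 53 cells had a secondary-granule sum from 50 to 200, 68 and 44 a monocyte sum from 2.5 to 10, and 5 and 11 cells of the secondary range also passed the monocyte cutoffs.

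**Figure D1:**
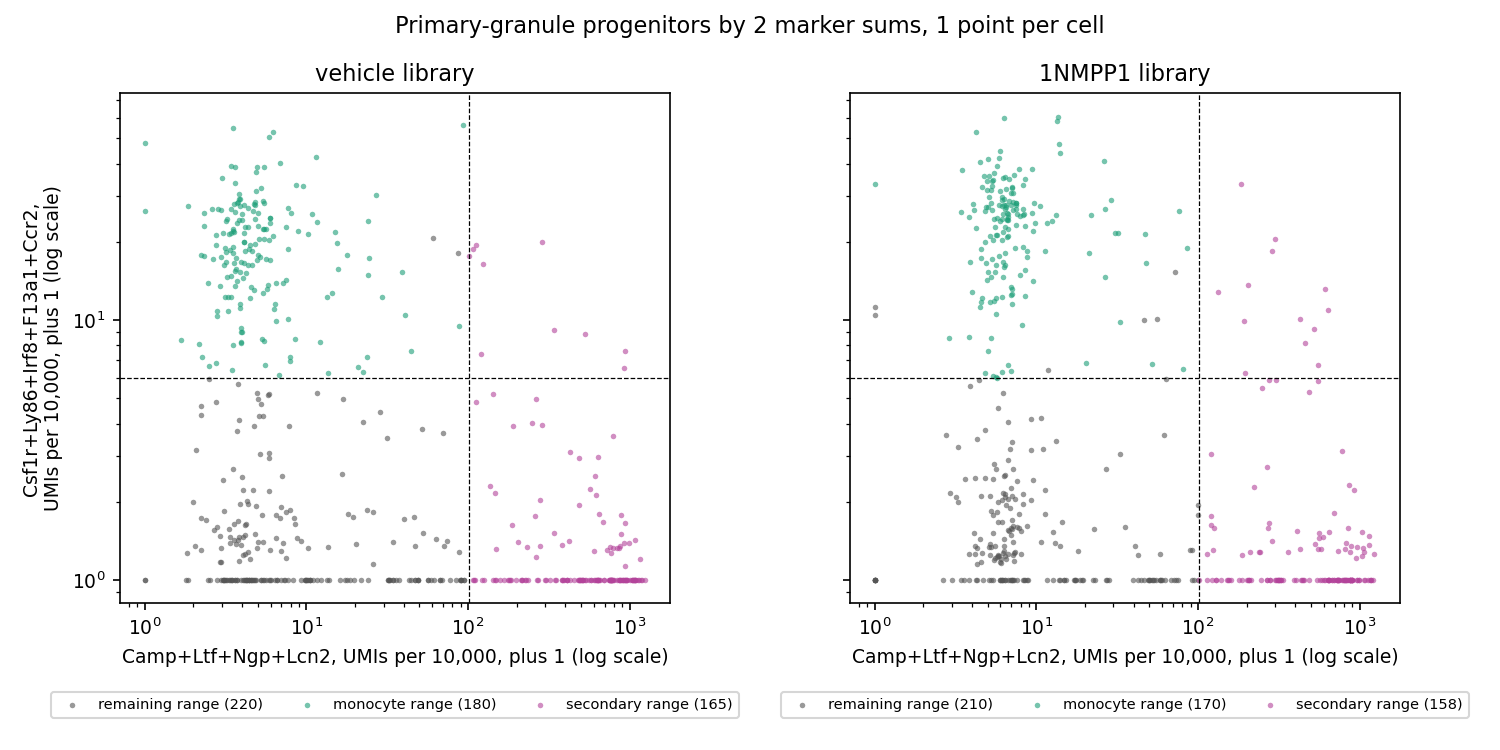
Each point is 1 progenitor of the vehicle library (left) or the 1NMPP1 library (right), with the summed level of 4 secondary-granule genes on the horizontal axis and of 5 monocyte genes on the vertical axis, both in UMIs per 10,000 plus 1 on log scales; dashed lines are the cutoffs at 100 and 5. The clouds of the 2 libraries have the same shape, with 220, 180 and 165 vehicle cells and 210, 170 and 158 1NMPP1 cells in the remaining, monocyte and secondary ranges; a few grey points lie above the monocyte line because fewer than 2 of its 5 genes were detected.

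The mix of ranges was alike in both libraries. The log2 ratio of shares, 1NMPP1 over vehicle, was 0.00 for the remaining range (interval -0.28 to 0.28), -0.01 for the monocyte range (-0.32 to 0.30) and 0.01 for the secondary range (-0.32 to 0.33), so a difference of about those bounds could not be seen at this depth. Within male-called cells the remaining range held 40.5% and 43.3%, and within female-called cells 38.6% and 38.4%.

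The 4 rule genes were highest in the remaining range, and each had its own pattern across the others. Mpo was at 5392 CPM in vehicle cells of the remaining range and at 6054 CPM in 1NMPP1 cells, against 2171 and 2113 CPM in the monocyte range and 2033 and 2165 CPM in the secondary range. Elane was at 9383 and 10108 CPM in the remaining range, 2436 and 2123 CPM in the monocyte range, and 6445 and 6816 CPM in the secondary range. The elastase gene thus kept most of its level in cells that already held secondary-granule transcripts, and the myeloperoxidase gene did not. Prtn3 was at 9645 and 9069 CPM, 4158 and 3328 CPM, and 5276 and 5072 CPM in the same order of ranges. Ctsg was at 4808 and 4474 CPM in the remaining range, 1760 and 1510 CPM in the monocyte range, and 797 and 755 CPM in the secondary range, the steepest step of the 4 from the remaining to the secondary range. Ms4a3 was at 1592 and 1447 CPM in the remaining range, 359 and 252 CPM in the monocyte range, and 900 and 865 CPM in the secondary range. The order of the 3 ranges was the same in both libraries for Elane, Prtn3, Ctsg and Ms4a3, while for Mpo the monocyte and secondary ranges changed places.

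**Figure D2:**
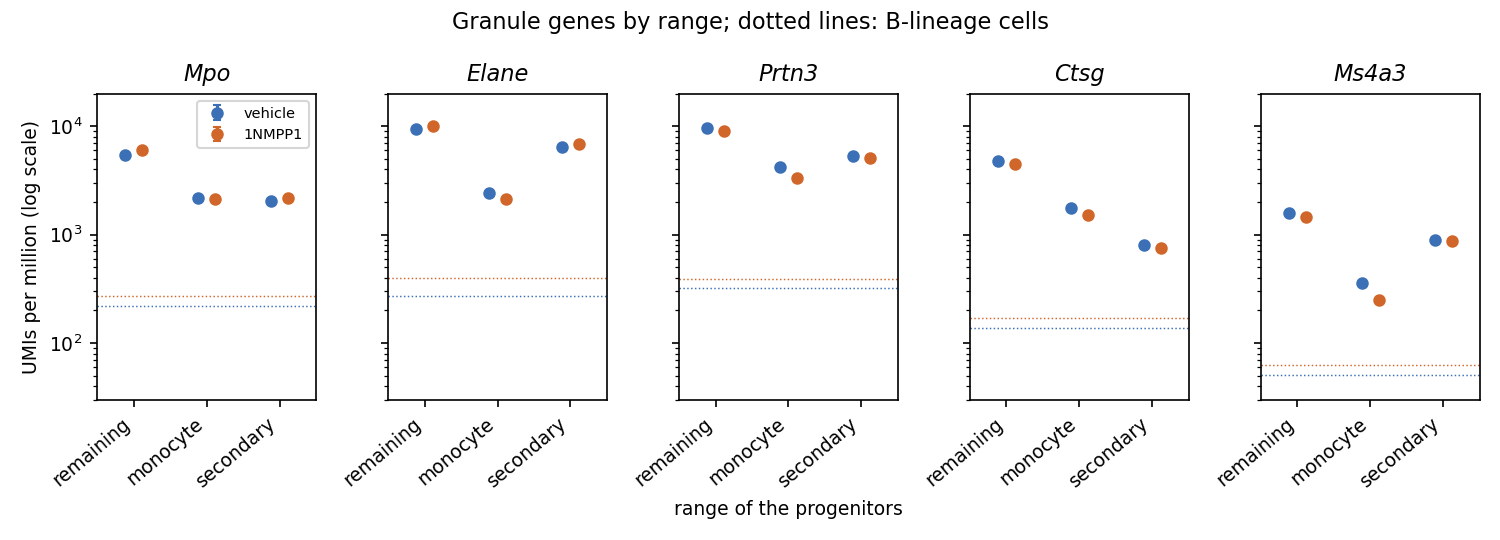
Level of Mpo, Elane, Prtn3, Ctsg and Ms4a3 in CPM (log axis) in each range of the progenitors, with vehicle in blue and 1NMPP1 in orange; error bars are 95% Poisson intervals, mostly smaller than the points, and dotted lines give the level in B-lineage cells. Ctsg runs from 4808 CPM in the remaining range to 797 CPM in the secondary range of the vehicle library, and Elane from 9383 to 6445 CPM.

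Across single cells, Elane and Prtn3 were the pair that went most closely together, with a Spearman rho of 0.89 over the 523 vehicle cells and 0.91 over the 496 1NMPP1 cells with at least 3000 UMIs. The other 42 progenitors of each library were left out. Elane and Ctsg had the lowest rho of the pairs, 0.48 and 0.53. Within the remaining range, Elane and Prtn3 stood at 0.83 and 0.84 and Mpo and Ctsg at 0.50 and 0.49, while Mpo and Ctsg reached 0.83 and 0.84 within the secondary range. These are descriptions: the cells of a library share its free RNA and differ in depth, and 4 of the 5 genes chose them.

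Genes that accompany the primary granules split into those of the granulocyte ranges and those of the monocyte range. In the contrast of the secondary over the remaining range, a gene was counted as past the fold with a log2 ratio of at least 1, or at most -1, in both libraries, which 3.76% (higher) and 14.5% (lower) of 8776 genes were. Of 14 companion genes, 2 were higher and 4 lower in the secondary range. In the monocyte over the remaining range, 3 companions were higher and 8 lower, where 7.56% and 3.69% of 9493 genes were. Prss57, a serine protease of the same granules, was at 291 and 298 CPM in the remaining range, 51.0 and 39.1 CPM in the monocyte range, and 184 and 191 CPM in the secondary range. Ctsc, the peptidase that trims the granule proteases into active enzymes, had the opposite layout, with 32.7 and 33.2 CPM in the remaining range, 592 and 573 CPM in the monocyte range, and 33.7 and 45.9 CPM in the secondary range. Srgn, the proteoglycan that packs granule proteins, was at 3782 and 3295 CPM, 898 and 812 CPM, and 1410 and 1374 CPM in that order. Serpinb1a, an inhibitor of the granule proteases, was highest in the secondary range, at 1191 and 1074 CPM against 635 and 637 CPM in the remaining range. Cd63, a granule membrane protein, was at 790 and 804 CPM in the remaining and 858 and 946 CPM in the secondary range but at 55.7 and 44.9 CPM in the monocyte range. Lysozyme, encoded by Lyz2, ran from 248 and 304 CPM in the remaining range to 3509 and 3655 CPM in the secondary range.

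Some transcription factors of the myeloid branches also differed between the ranges, each with its own pattern. Of 18 on the list, 4 were higher and 5 lower in the secondary than in the remaining range, where 3.76% and 14.5% of all genes were. In the monocyte over the remaining range, 4 were higher and 4 lower, where 7.56% and 3.69% of all genes were. Irf8 helped set the monocyte range, so its level across the ranges follows from the cutoff and is no result. Cebpe, which drives the secondary-granule genes, was at 204 and 215 CPM in the remaining range, 539 and 490 CPM in the secondary range, and 25.8 and 18.6 CPM in the monocyte range. Gfi1, a repressor needed for neutrophil formation, was at 49.3 and 48.6 CPM in the remaining range and 6.3 and 4.2 CPM in the monocyte range. Klf4, a factor of monocyte formation that set no range, was at 303 and 347 CPM in the monocyte range and at 8.0 and 7.9 CPM in the remaining range. Myb, which keeps progenitors dividing, was at 348 and 314 CPM in the remaining range, 107 and 94.3 CPM in the monocyte range, and 77.6 and 65.1 CPM in the secondary range. Spi1, which encodes PU.1, moved little, from 241 and 246 CPM in the remaining range to 340 and 334 CPM in the monocyte range and 338 and 317 CPM in the secondary range.

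Genes of earlier progenitors were lower in the secondary than in the remaining range. Of 8 list genes that could be read there, 8 were lower than in the remaining range in both libraries. In that contrast 14.5% of 8776 genes were lower. Kit, the receptor for stem cell factor, was at 59.3 and 64.4 CPM in the remaining range and at 23.4 and 24.3 CPM in the secondary range. Cd34, a surface protein of early progenitors, was at 57.5 and 51.2 CPM in the remaining range, 65.0 and 63.5 CPM in the monocyte range, and 1.3 and 8.4 CPM in the secondary range. These early genes were thus found beside the primary granule genes mainly in cells under the secondary-granule cutoff. Such cells did not lack secondary-granule transcripts: Camp, Ltf, Ngp and Lcn2 summed to 1197 and 1529 CPM in the remaining range.

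The cell's protein-making genes were lower in the secondary range, while its cell cycle genes mostly stayed under the fold. Of 14 genes of ribosome biogenesis, 13 were lower in the secondary than in the remaining range (medians -1.63 and -1.79), and of 16 genes of protein folding and secretion in the endoplasmic reticulum, 12 were lower (medians -1.30 and -1.11), beside medians of -0.40 and -0.33 over all genes read. Npm1, a nucleolar protein of ribosome assembly, was at 1878 and 1781 CPM in the remaining range and 415 and 425 CPM in the secondary range. Hspa5, the main chaperone of the endoplasmic reticulum, was at 890 and 688 CPM and 306 and 253 CPM. Of 16 DNA replication genes, 1 was lower and none higher, and of 17 mitosis genes none was past the fold in either direction. Of 6 genes of the NADPH oxidase, the enzyme that makes superoxide for the phagosome, 4 were higher in the secondary range; Cybb, its catalytic subunit, was at 90.2 and 106 CPM in the remaining range and 875 and 868 CPM in the secondary range. All of this described the cells of a range together, and each range was itself cut from gene levels.

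The genes that led each range by the naming rule brought in further lineages. For the remaining range they were mostly genes of basophils and eosinophils: Fcer1a, Prss34, Il4 and Cyp11a1 of basophils and mast cells, and Prg2, Prg3 and Epx of eosinophils, besides Slc24a3. Prss34, a basophil protease, was at 1504 and 1154 CPM in the remaining range and at 0.70 and 4.33 CPM in the monocyte range. Prg2, the major basic protein of eosinophils, was at 155 CPM in the vehicle and 441 CPM in the 1NMPP1 cells of the remaining range. Few cells held such genes at a high level: at least 10 per 10000 UMIs of 5 basophil and mast cell markers was reached by 28 of the 220 and 21 of the 210 cells, and of 4 eosinophil markers by 5 and 5. Leaving out the 36 and 27 progenitors that reached either sum moved the counts of genes past 0.5 between the libraries, given below, from 536 and 275 to 561 and 269.

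In the monocyte range the leading genes were Trem2, Aif1, Olfm1, Ahnak and Pld4 against the remaining range and Serpinf1, Itga1, Met, Stxbp6 and Trem2 against the secondary range. Of 8988 genes read in that contrast, 4.65% were higher and 21.3% lower in the secondary than in the monocyte range. Trem2, a lipid receptor of macrophages and their precursors, was at 59.1 and 67.4 CPM in the monocyte range, 0.36 and 0.32 CPM in the remaining range and 58.8 and 56.4 CPM in monocytic cells that were not progenitors. In the secondary range they were Chil3, Orm1, Itgb2l, Olfml2b and Cd177 against the remaining range and Orm1, Slco4c1, Olfm4, S100a9 and Mogat2 against the monocyte range. Chil3, a chitinase-like protein of the secondary granules, was at 3200 and 3816 CPM in the secondary range and 105 and 153 CPM in the remaining range. Fcnb, encoding a ficolin of the granules, was at 1326 and 1667 CPM in the secondary range, above the 373 and 371 CPM of secondary-granule cells that were not progenitors. Mogat2, which makes diacylglycerol, had the same layout, with 56.8 and 60.9 CPM in the secondary range and 20.3 and 21.2 CPM in those later cells.

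The progenitors were set beside 4 other marrow populations. The comparison populations were 2598 and 3146 secondary-granule cells, 831 and 995 monocytic cells, 2063 and 2851 mature neutrophils, and 2062 and 2551 B-lineage cells, each defined by marker genes and holding no progenitor. Since gene levels chose every population, the contrasts are descriptions. Compared with secondary-granule cells, 38.2% of 11384 genes were at least 1 log2 unit higher in the progenitors in both libraries and 11.4% lower, so the progenitors differed from them broadly. Of 14 ribosome biogenesis genes 14 were higher (medians 3.56 and 3.32), of 16 DNA replication genes 15 (2.12 and 2.14) and of 16 genes of folding and secretion 14 (2.09 and 2.08). Of 17 mitosis genes, 2 were higher (0.55 and 0.60). Of 10 genes of earlier progenitors, 10 were higher (3.03 and 3.23). Of 18 interferon response genes, 13 were lower and 1 higher (medians -1.63 and -1.45), and of 10 genes of tertiary granules and mature neutrophils 10 were lower.

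Compared with monocytic cells, 7.82% of 11320 genes were higher and 18.3% lower in the progenitors. Of 10 genes of earlier progenitors, 7 were higher and 1 lower. DNA replication genes were higher in 10 of 16 cases and mitosis genes in 0 of 17, interferon response genes lower in 17 of 18 (medians -3.21 and -2.93), immediate early genes lower in 14 of 15, and genes of MHC class II, which present peptides to T cells, lower in 7 of 7. Ifitm3, an interferon-induced membrane protein, was at 267 and 308 CPM in the progenitors and at 2025 and 2373 CPM in monocytic cells. The monocytic cells may hold other cell types. Of them, 44 and 73 reached 10 per 10000 UMIs for markers of plasmacytoid dendritic cells, and 24 and 20 for macrophage markers. Against mature neutrophils, 46.3% of 10875 genes were higher and 18.4% lower, with 17 of 17 mitosis genes and 9 of 10 genes of earlier progenitors higher. Against B-lineage cells, 7.67% of 12212 genes were higher and 21% lower, and no DNA replication or ribosome biogenesis gene was past the fold. Of 17 mitosis genes, none was higher and 1 was lower (medians -0.47 and -0.60). Of 16 inflammatory genes, 5 were higher than in B-lineage cells and 1 lower.

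The genes that stood out most from all 4 populations, by the ratio to the highest of them, were Hsd17b1, Mgl2, Cst7, Nkg7, Epx, Ms4a3, Prss57, Prss34, Fcer1a and Mcpt8. Cst7, which encodes an inhibitor of cathepsins, was at 149 and 149 CPM in the progenitors and at 12.4 and 11.3 CPM in B-lineage cells, the highest of the other populations. Nkg7, a protein of cytotoxic granules, was at 506 and 507 CPM and at most 34.0 and 45.5 CPM elsewhere. Hsd17b1, an enzyme that reduces oestrone, was at 18.0 and 17.1 CPM against at most 0.89 and 1.11 CPM elsewhere. The basophil genes Prss34, Fcer1a and Mcpt8 and the eosinophil gene Epx are on this list too. Mcpt8, a basophil protease, had a UMI in 24.1% and 29.0% of progenitors and in 1.60% and 4.04% of B-lineage cells, Prss34 in 6.37% and 7.62% of progenitors and Epx in 1.06% and 1.86%. These shares were not thinned, and the progenitors were deeper (medians of 25833 and 31349.5 UMIs against 6168 and 7513 in B-lineage cells). The Mcpt8 level was 377 and 334 CPM in progenitors and 15.1 and 46.6 CPM in B-lineage cells.

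Most progenitors held transcripts of dividing cells. At 3000 UMIs per cell, Mki67 or Top2a, both made in dividing cells, had a UMI in 71.1% of 523 vehicle progenitors (67 to 75) and 70.2% of 496 1NMPP1 progenitors (65.9 to 74.2). The shares were 28.6% and 26.0% in secondary-granule cells, 37.5% and 36.6% in monocytic cells, 37.7% and 41.8% in B-lineage cells and 8.0% and 11.5% in mature neutrophils. The intervals of these shares did not overlap those of the progenitors. The mean level went the other way against B-lineage cells. Thinned alike, Mki67 was at 2.82 and 2.82 per 10000 UMIs in progenitors and at 3.47 and 3.78 in B-lineage cells. Top2a was at 3.38 and 3.44 in progenitors and at 4.01 and 4.49 in B-lineage cells. Before thinning, the progenitors stood at 91.3% and 92.2%. By range, the thinned share was 63.3% and 61.3% in the remaining range, 76.7% and 75.3% in the monocyte range, and 75% and 76.2% in the secondary range. Thinning left out 42 progenitors of each library with fewer UMIs.

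**Figure D3:**
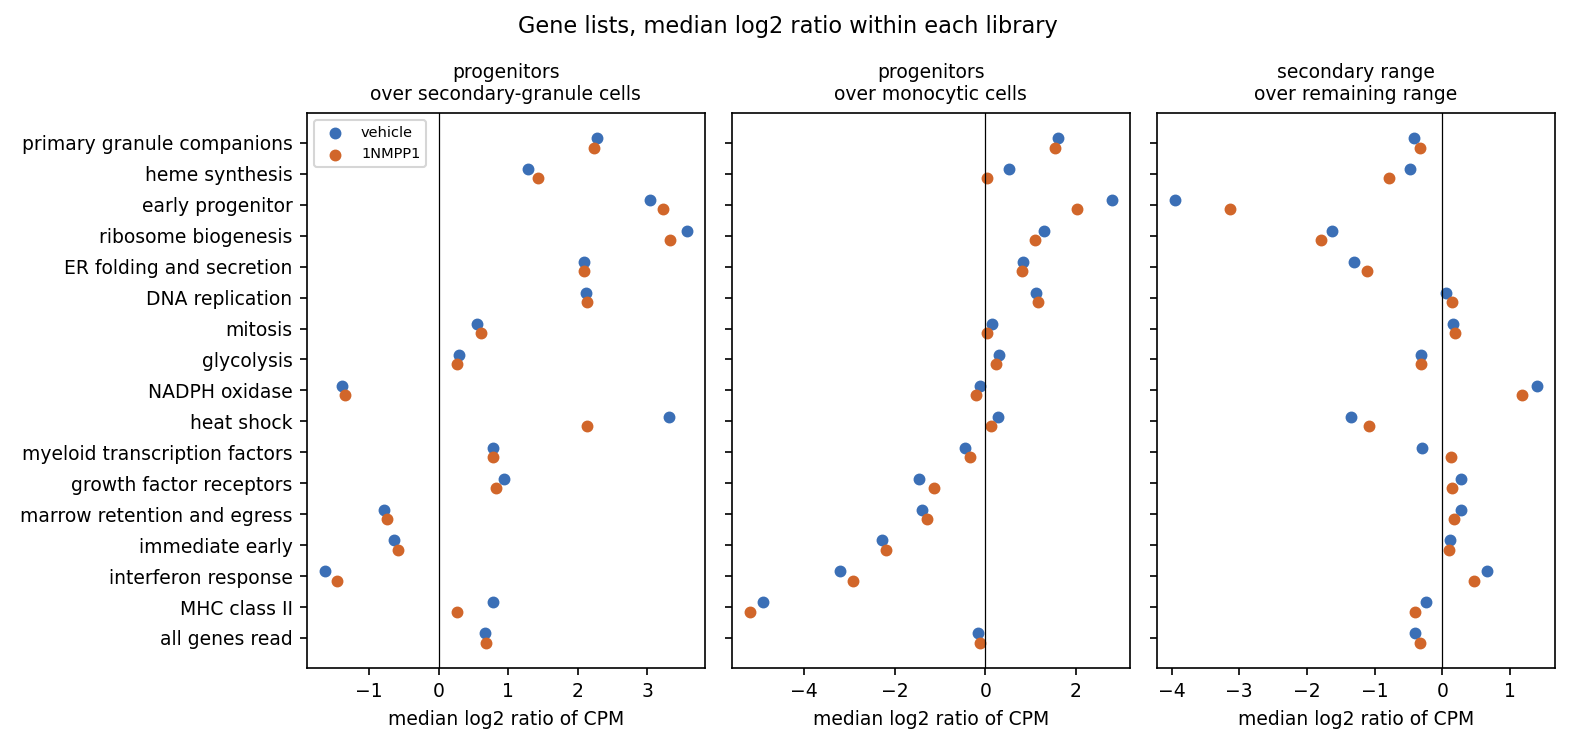
Median log2 ratio of each gene list, with 1 point per library, for progenitors over secondary-granule cells (left), progenitors over monocytic cells (middle) and the secondary over the remaining range (right). Ribosome biogenesis stands at 3.56 and 3.32 in the left panel and at -1.63 and -1.79 in the right one, and the interferon response list at -3.21 and -2.93 in the middle panel.

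Between the libraries, progenitors were a smaller share of the kept barcodes under 1NMPP1. They made up 6.02% of 9380 vehicle barcodes (5.55 to 6.52) and 4.62% of 11634 1NMPP1 barcodes (4.25 to 5.02), a log2 ratio of -0.38 (-0.55 to -0.21). The size depended on sex call and on the Ebf1 condition. Among male-called barcodes the shares were 6.36% and 5.80%, a log2 ratio of -0.13 (-0.42 to 0.15), and among female-called barcodes 9.01% and 5.87%, a ratio of -0.62 (-0.92 to -0.31). Without the Ebf1 condition the ratio was -0.20. How marrow was sampled by dissection and digestion in each library was not measured, and its part in the share was not tested.

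Within the progenitors, the granule genes differed little between the libraries. Of 11302 genes with at least 50 UMIs, 536 (4.74%) were at least 0.5 higher on the log2 scale under 1NMPP1 and 275 (2.43%) at least 0.5 lower, and the median over all of them was 0.02. In male-called cells the balance was the other way round, with 354 higher and 448 lower, and in female-called cells 730 were higher and 289 lower. The 4 rule genes had log2 ratios from -0.13 to 0.11. Of 14 companion genes none was past 0.5 in either direction (median 0.01), and the same held for the 18 transcription factors (median -0.01), the 16 DNA replication genes (median -0.01) and the 17 mitosis genes (median -0.05). Of the 8 genes of heme synthesis, which supplies the cofactor of myeloperoxidase, none was past 0.5 (median -0.17), and Alas1, its first enzyme, was at 165 and 167 CPM. Of 10 secondary-granule genes none was past 0.5 (median -0.05); Fcnb was at 427 and 544 CPM, a ratio of 0.35 (0.30 to 0.40), and Chil3 at 925 and 1150 CPM, a ratio of 0.31 (0.28 to 0.35).

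Many interferon response genes were higher in the 1NMPP1 library, in progenitors as in the other marrow cells. Of 17 genes read, 10 were at least 0.5 higher, 17 were above 0, and the median was 0.78, against 4.74% of all genes. The summed level of the list differed less than this median, at 504 CPM in the vehicle and 682 CPM in the 1NMPP1 progenitors. The list median was 0.74 in secondary-granule cells, 0.45 in monocytic cells, 0.68 in mature neutrophils and 0.60 in B-lineage cells, and after taking off the median ratio of these 4 populations gene by gene it was 0.13 in the progenitors. Ifi27l2a, an interferon-induced protein of mitochondria, was at 34.8 CPM in 140 vehicle cells and 87.0 CPM in 257 1NMPP1 cells, a ratio of 1.32 (1.18 to 1.47). Others rested on few molecules. Ifit1 had 7 and 47 UMIs, of which 5 cells of the 1NMPP1 library held 85.1%, and Rsad2 had 32 and 123 UMIs, of which 5 cells held 81.3%. Usp18, which damps interferon signalling, had 9 UMIs in 7 cells and 47 UMIs in 36 cells, a ratio of 2.17 (1.19 to 3.45). The minimum for reading a gene was set on its UMIs in both libraries together, so a high count in either library could meet it. Ifit1 and Usp18 were read mainly through their 1NMPP1 UMIs, and both count among the 10 higher genes and in the list median of 0.78.

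The interferon difference was not the same in both sex calls. The list median was 0.69 over 13 genes read in male-called and 0.28 over 10 genes read in female-called progenitors, so the 2 medians cover different genes. The summed level of the list was 466 and 703 CPM in male-called cells and 494 and 568 CPM in female-called cells. At 3000 UMIs per cell, at least 2 genes of the list were detected in 18.7% of vehicle and 36.2% of 1NMPP1 male-called cells (14.4 to 23.6 and 28.8 to 44.2), and in 30.2% and 27.3% of female-called cells (22.5 to 38.9 and 22 to 33.2). Over all progenitors the thinned shares were 24.5% and 32.9%, below the 52.4% and 68.3% of secondary-granule cells and the 89.9% and 94.9% of monocytic cells, and before thinning they were 81.4% and 86.2%. By range, the summed level was 259 and 369 CPM in the remaining range, 801 and 1094 CPM in the monocyte range, and 413 and 532 CPM in the secondary range, so each range had a higher level in the 1NMPP1 library.

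A few heat shock genes were lower in the 1NMPP1 progenitors. Of 11 read, 3 (Hspa1a, Hspa1b and Hsph1) were at least 0.5 lower and 1 was above 0, with a median of -0.34, against 2.43% of all genes. Hspa1a had 397 and 155 UMIs, a ratio of -1.51 (-1.79 to -1.24), Hspa1b 347 and 147 UMIs, a ratio of -1.39, and Hsph1, a cofactor of these chaperones, 449 and 284 UMIs, a ratio of -0.81 (-1.03 to -0.60). Hspa1a and Hspa1b are near-identical copies, and counting could split reads between them. Abundant members of the list differed less: Hspa8, the constitutive chaperone of the same family, was at 1553 and 1195 CPM, a ratio of -0.38 (-0.41 to -0.35). In the vehicle library 5 cells held 47.6% of the Hspa1a and 49.9% of the Hspa1b UMIs.

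Before thinning, the share of cells with a UMI of the inducible pair went opposite ways by sex call, while its CPM did so only in part. A UMI of Hspa1a or Hspa1b was found in 11.7% of vehicle and 34.1% of 1NMPP1 male-called progenitors (8.29 to 15.9 and 26.9 to 41.9), at medians of 25746 and 33722 UMIs. In female-called progenitors it was found in 36.4% and 8.58% (28.2 to 45.2 and 5.52 to 12.6), at medians of 30670.5 and 31226.5 UMIs. Thinned to 3000 UMIs, the shares were 3.74% (1.88 to 6.6) and 8.75% (4.87 to 14.2) in male-called cells, with overlapping intervals. In female-called cells they were 10.1% (5.48 to 16.6) and 1.15% (0.239 to 3.33). Before thinning, monocytic cells had 13.7% and 38.1% in male-called and 31.0% and 19.6% in female-called cells. Other populations did not share the lower female-called value: B-lineage cells had 3.93% and 11.4% in male-called and 6.39% and 8.44% in female-called cells, and secondary-granule cells 2.19% and 3.19% in male-called and 1.86% and 3.93% in female-called cells. The summed CPM of the pair did not show this in male-called cells, with 39.8 and 37.7 CPM, where 5 vehicle cells held 85.4% of the UMIs, so no order is read from the male-called shares; in female-called cells it was 63.5 and 4.69 CPM. Hsph1 was lower in both, with ratios of -0.82 and -0.57.

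Few genes of ribosome biogenesis or of the endoplasmic reticulum were past the fold between the libraries, though most lay below 0. Over all genes, 6230 of 11302 were above 0 and 2.43% past -0.5. Of 14 ribosome biogenesis genes none was above 0 and 1, Nop2, a methyltransferase of ribosomal RNA, was past 0.5, at 25.3 and 17.5 CPM, a ratio of -0.52 (-0.75 to -0.30). The list median was -0.23, with -0.21 in male-called and -0.18 in female-called cells. Of 16 genes of folding and secretion, 1 was above 0 and Creld2, induced by unfolded protein, was past 0.5 at -0.64 (-0.79 to -0.50), a value that was -1.31 in male-called and 0.05 in female-called cells. Immediate early genes, which respond fast to stimuli and to tissue handling, had a median of 0.15, with 14 of 15 above 0 and none past 0.5, and 0.10 to 0.20 in the 4 other populations.

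Receptors for growth factors differed little, apart from Flt3. Kit was at 36.4 and 37.0 CPM, and Csf3r, the receptor for G-CSF, at 69.1 and 75.6 CPM. Flt3, a receptor of early and lymphoid-primed progenitors, had 94 UMIs in 45 vehicle cells and 236 UMIs in 58 1NMPP1 cells, a ratio of 1.17 (0.82 to 1.53), with 0.68 in male-called and 1.72 in female-called cells and 0.50 as the median of the other populations. It was highest in monocytic cells, at 41.0 and 45.1 CPM, and in the monocyte range of the progenitors it was at 12.3 and 25.8 CPM. Of 10 genes of earlier progenitors, Flt3 was the 1 past 0.5, and the list median was -0.01. Within the sex calls the median was -0.53 over 9 genes read in male-called and 0.61 over 10 genes in female-called progenitors.

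**Figure D4:**
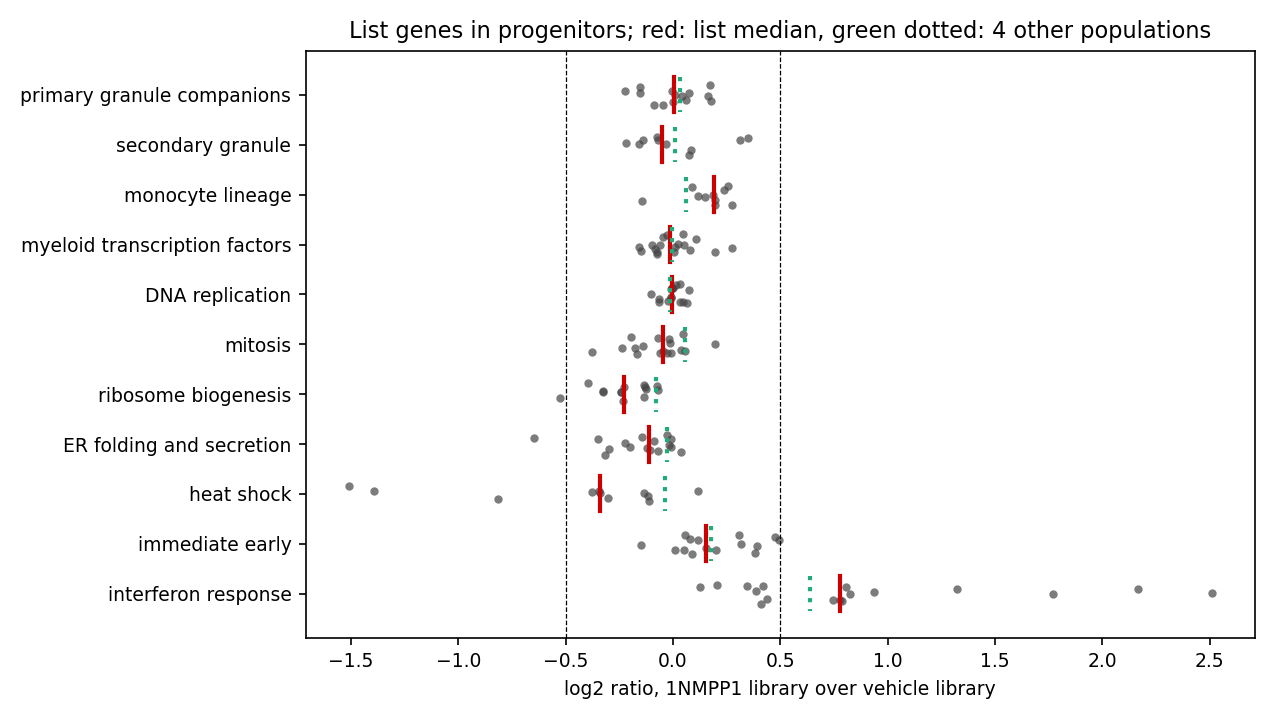
Log2 ratio of 1NMPP1 over vehicle in the progenitors for each gene of 11 lists (grey points), with the list median in red, the median in the 4 other populations as a green dotted mark, and dashed lines at 0.5 and -0.5. The interferon list has its median at 0.78 and the heat shock list at -0.34, while companions, transcription factors and DNA replication genes lie within 0.5 of 0.

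The 20 genes chosen by rule for the size of their ratio mostly had a like ratio in the other marrow populations: for 15 of them the ratio in progenitors lay within 0.5 of the median of the others, and Dynlt1a, Nkain2, Hspa1a, Hspa1b and Ptk2 were the exceptions. The highest were Gstp1 (29 and 370 UMIs, ratio 3.50), Hist1h2ap (67.2 and 729 CPM, ratio 3.44), Eno1 (44.7 and 210 CPM, ratio 2.23), Hist2h2aa1, Dynlt1a, Hmga1, Hist1h4h, Dynlt1f, Sap18 and Hist1h2ae, the last at 1.25. In the other populations the median ratio was 3.66 for Gstp1, 3.52 for Hist1h2ap and 2.18 for Eno1. Gstp1 encodes a glutathione transferase, Eno1 an enzyme of glycolysis and Hist1h2ap a core histone; these and the Dynlt1 genes have near-identical copies in the genome, so their counts are uncertain. In the ganglion libraries of the same 2 treatments the ratios were -0.73, -0.36 and -0.17 in that order. The lowest were Pou2f3 (-1.68), Nkain2 (-1.59), Hspa1a, Hspa1b, Wdr89 (166 and 68.0 CPM, -1.29), Ptk2, Anks1b, Ftl1-ps1, Eno1b and Pde1c (-1.21), of which Ftl1-ps1 and Eno1b are also copies of other genes. Pou2f3 had a ratio of -1.56 over all kept growth plate barcodes and of -2.2 in the ganglia, and Nkain2 of -1.04 and -0.94. Of the 536 genes that were higher, 115 (21.5%) were also at least 0.5 higher by the median of the other populations, and of the 275 that were lower, 96 (34.9%). The share of all genes read that passed 0.5 by that median was not counted. Whether these 2 shares are large or small is therefore not read. After taking off the median ratio of the other populations gene by gene, 504 genes (4.46%) stood at least 0.5 higher and 307 (2.72%) at least 0.5 lower.

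**Figure D5:**
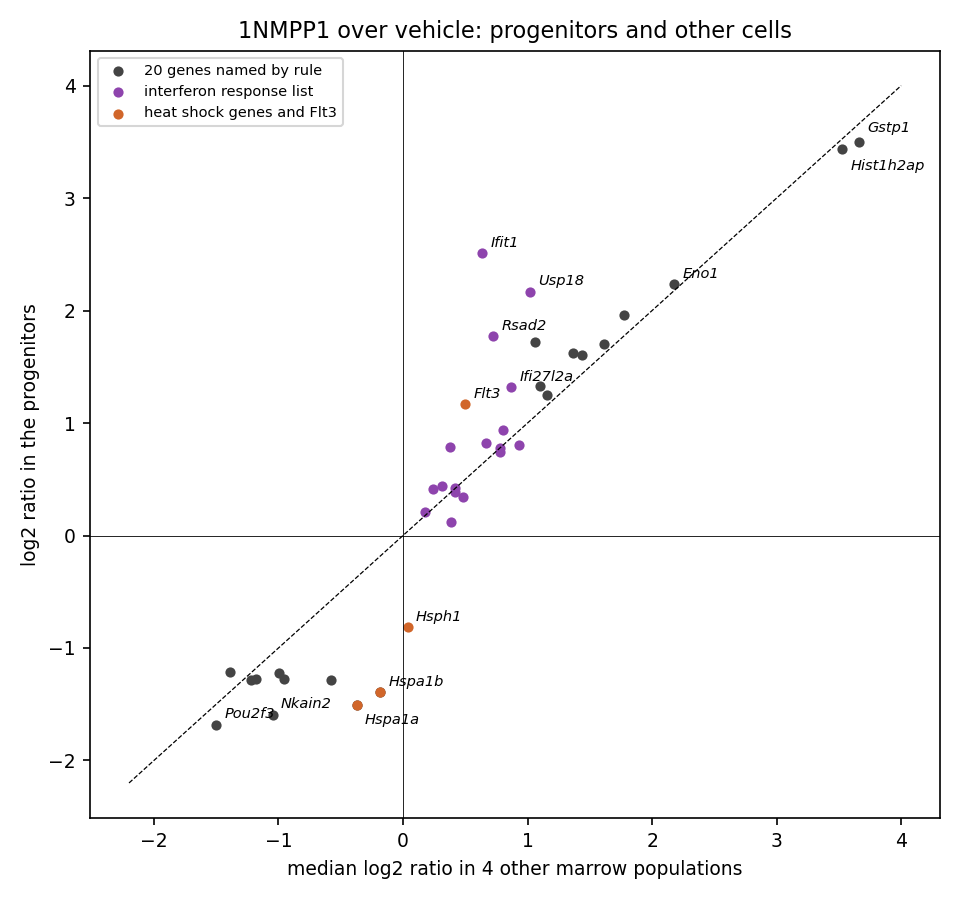
Log2 ratio of 1NMPP1 over vehicle in the progenitors (vertical axis) against its median in secondary-granule cells, monocytic cells, mature neutrophils and B-lineage cells (horizontal axis) for the 20 genes named by rule, the interferon response list, the heat shock genes Hspa1a, Hspa1b and Hsph1, and Flt3; the dashed line marks equal values. Gstp1 lies at 3.50 and 3.66, near the line, and Hspa1a at -1.51 and -0.37, below it.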

How the data were processed

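Single-cell RNA was read from 4 libraries, of which the 2 growth plate libraries hold the cells described. The authors deposited whole-number UMI counts for each gene in each barcode. Cell Ranger 7.2.0 made them, per the file headers, and the genome was mm10 per the submitters' processing notes. Kit chemistry and annotation release: not given in the sources used here. UMIs of the growth plate libraries summed to 102692919 and 139703885 over 32285 genes. Members and lists were chosen with earlier results of these data known.

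UMIs were summed per library and population and scaled to CPM, and log2 ratios used 0.5 UMI added to each sum. Intervals are exact at 95% (Clopper-Pearson, Poisson, conditional binomial). A gene was read from 50 UMIs over both libraries. The 20 lists were described by counts and medians. Since each group is 1 library, nothing was tested between groups. On simulated counts the intervals and fold counts were checked. Python 3.11.15, numpy 2.4.6, scipy 1.17.1, pandas 2.3.3 and scanpy 1.11.5 (Scrublet) were used.

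Secondary-granule cells had Camp, Ltf, Ngp and Lcn2 from 200 per 10000 UMIs with all detected. Monocytic cells had Csf1r, Ly86, Irf8, F13a1 and Ccr2 from 10 with at least 3 detected, and mature neutrophils Retnlg, Mmp8, Mmp9 and Cxcr2 from 20 with at least 3 detected. Genes named between libraries were the 10 highest and 10 lowest ratios from 200 UMIs, with a UMI in at least 10% of cells of the higher library, a level of at least 25% of the highest other population, and the same sign in both sex calls; between populations or ranges, those with the highest smaller ratio of the 2 libraries. List examples were chosen after their values were seen. Alternatives changed the rule, the ranges, depth, scaling, doublets and sex call. Some genes, including the targeted one, have no values reported here.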

Additional observations from a re-analysis of the deposited data

Results flagged for a closer look

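Before thinning, the share of progenitors with a UMI of Hspa1a or Hspa1b, both heat shock genes, went opposite ways by sex call. The log2 ratio of 1NMPP1 over vehicle was 1.54 in male-called and -2.08 in female-called cells. Thinned, the vehicle and 1NMPP1 shares were 3.74% (1.88 to 6.6) and 8.75% (4.87 to 14.2) in male-called cells. These intervals overlap, so no order is read from the male-called shares. In female-called cells the thinned shares were 10.1% (5.48 to 16.6) and 1.15% (0.239 to 3.33). The difference between the calls was not tested, since each rests on 1 library per treatment and how many animals stand behind a call is unknown. In male-called cells the summed CPM of the pair was 39.8 and 37.7, so the share there has no counterpart in the level.

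Genes of earlier progenitors also went opposite ways, with a list median of -0.53 in male-called cells, where 7 of 9 genes read were below 0, and of 0.61 in female-called cells, where 8 of 10 genes read were above 0. This difference was not tested either.

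The same rule found progenitors in the ganglion libraries, which the comparisons above do not use. It was met by 43 vehicle barcodes (1.46% of kept barcodes, 1.06 to 1.97) and 28 1NMPP1 barcodes (1.27%, 0.85 to 1.83). Their Mpo level was 2928 and 4725 CPM, and they fell into the remaining, monocyte and secondary ranges as 17, 16 and 10 cells and as 13, 11 and 4 cells. None of them carried a barcode that was also a progenitor of a growth plate library.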

How the results depend on the processing

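Of 168 comparisons of a main result with an alternative, 147 gave a like value and 21 moved. The cause was not tested where none is named. A reversal was counted only for a ratio or list median of at least 0.5 in size, in either direction. Among these main results that held for the interferon median alone, which did not reverse. No paired analysis was possible because each group is 1 library, and for the same reason no replicate could be left out. The log2 ratio of progenitor shares moved from -0.38 to -0.20 without the Ebf1 condition, to -0.13 in male-called and to -0.62 in female-called cells. The counts of genes higher and lower between the libraries, 536 and 275, were 354 and 448 in male-called cells, 993 and 634 with each cell weighed alike, 139 and 95 from 200 UMIs, where fewer genes are read, and 4106 and 2933 with no minimum beyond 1 UMI, where many ratios rest on a few molecules. The heat shock median of -0.34 was -0.19 in male-called cells, -0.24 in the remaining range and -0.21 after taking off the other populations. The interferon median of 0.78 was 0.28 in female-called cells, where only 10 genes were read, and 0.13 after taking off the other populations. The count of genes higher in progenitors than in B-lineage cells, 937, was 1437 with cells weighed alike. Thinned to 3000 UMIs, where fewer genes are read, the counts were 2775 for higher than in secondary-granule cells (4348 unthinned), 532 higher and 1332 lower than in monocytic cells (885 and 2069) and 2883 higher than in mature neutrophils (5034).

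Among single genes and the medians of the other lists, 931 values were alike, 152 moved and 9 reversed. H2-Eb1 went from -0.85 to 0.092 without the Ebf1 condition and Creld2 from -0.64 to 0.046 in female-called cells. With cells weighed alike, Oasl2 went from 0.78 to -0.0012 and Rtp4 from 0.94 to -0.19. After taking off the other populations, Gstp1 stood at -0.17, Hist1h2ap at -0.087, Pde1c at 0.18, Xaf1 at -0.030 and Slfn5 at -0.13. The alternatives that take off the other populations, keep cells from 3000 UMIs or leave out basophil and eosinophil marker cells were chosen after seeing the data.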

Other observations

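Genes that hold cells in the marrow or let them leave it were lower in the progenitors than in mature neutrophils, in both libraries. Of 10 such genes, 8 were at least 1 log2 unit lower and 1 was higher, where 18.4% of all genes were lower and 46.3% higher. Cxcr4, the receptor for the marrow chemokine CXCL12, was at 104 and 109 CPM in progenitors and at 300.3 and 355 CPM in mature neutrophils. Cxcr2, which draws neutrophils into the blood and was part of how the mature neutrophils were chosen, was at 17.4 and 16.2 CPM in progenitors. Itgb1, a subunit of integrins that bind the marrow matrix, was the gene that was higher, at 100.5 and 97.1 CPM against 22.7 and 28.2 CPM.

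Inflammatory genes showed the same side, with 14 of 15 lower in progenitors than in mature neutrophils. Cxcl2, a chemokine that attracts neutrophils, was at 76.5 and 106 CPM in progenitors and 2371 and 2018 CPM in mature neutrophils, and Tlr2, a receptor for bacterial lipoproteins, at 46.2 and 46.6 CPM against 361 and 364 CPM.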
